A study of Homo sapiens with 6 samples.

Results

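Smooth-muscle type contractile genes were examined in HuCCT1, a cell line from a human intrahepatic cholangiocarcinoma (a bile duct cancer within the liver), by taking the 10 genes ACTA2, ACTG2, MYH11, MYL9, TPM1, TPM2, TAGLN, CNN1, CALD1 and LMOD1 by name from a table of 20811 genes, in which all 10 were found. HuCCT1/CD90- cells carried the Lenti-CMV-GFP-2A-Puro-Blank lentivirus and HuCCT1/CD90+ cells the human THY1-CMV-GFP lentivirus, THY1 being the gene of CD90. Both were used at a multiplicity of infection of 40 and grown in the same medium with serum, so that both lines, called CD90- and CD90+ below, carry GFP and neither is the untransduced parent. Each line gave 3 libraries, and since no label says that they came from separate cultures, p-values measure only the spread between these libraries, which may be technical. Whether either line is a clone is not stated in the sources used here. Values are RPM, a gene's reads scaled to a fixed total of mapped reads for each library, and each gene was read from 1 amplicon.

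Smooth muscle contracts when myosin heavy and light chains pull on filaments of smooth muscle actin that are lined by tropomyosin and held in check by calponin and caldesmon. Many of these genes are switched on together by serum response factor (SRF), which binds a DNA element called the CArG box, with the coactivators myocardin in muscle and MRTF-A and MRTF-B in most other cells. MRTFs enter the nucleus when actin monomers are used up in filaments. Epithelial and tumour cells can express part of this set, above all in epithelial-mesenchymal transition and under TGF-β1, and fibroblasts that do so are called myofibroblasts. Cholangiocytes, the cells from which intrahepatic cholangiocarcinoma is thought to arise, are epithelial and have no smooth muscle programme.

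Promoters of the contractile genes are shown because the CArG box is the element that they are known for. RefSeq promoters of GRCh38.p14, each with 250 bases before and 50 after a transcript start, were matched by symbol for 7 of the 10 genes, in 12 promoters. TAGLN, MYL9 and MYH11 had no entry. The CArG consensus is its own reverse complement, so that a search of the given strand covers both. An exact box was found in 1 of the 12 promoters, that of ACTG2, against 1.29% of the 35116 promoters in the table. With up to 1 mismatch, 5 of the 12 held a match, against 18.9% of all, and they belonged to ACTA2, ACTG2, LMOD1 and, with 2 promoters, CALD1. Below, capitals mark these matches. In ACTG2 (chr2:73892758-73893057, plus strand) the matches at -110 and -73 from the start are exact and that at -239 has 1 mismatch. In the inner promoter of ACTA2 (chr10:88952724-88953023, minus strand) the matches at -121 and -71 have 1 mismatch each. A match is a likeness of letters in this window and no measurement of binding.
ACTG2 promoter: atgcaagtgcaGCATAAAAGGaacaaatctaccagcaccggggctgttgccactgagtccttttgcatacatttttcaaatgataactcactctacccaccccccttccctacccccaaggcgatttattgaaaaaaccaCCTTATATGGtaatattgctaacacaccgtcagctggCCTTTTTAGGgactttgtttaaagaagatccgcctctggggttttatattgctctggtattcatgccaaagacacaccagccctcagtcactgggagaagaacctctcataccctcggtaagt
ACTA2 promoter: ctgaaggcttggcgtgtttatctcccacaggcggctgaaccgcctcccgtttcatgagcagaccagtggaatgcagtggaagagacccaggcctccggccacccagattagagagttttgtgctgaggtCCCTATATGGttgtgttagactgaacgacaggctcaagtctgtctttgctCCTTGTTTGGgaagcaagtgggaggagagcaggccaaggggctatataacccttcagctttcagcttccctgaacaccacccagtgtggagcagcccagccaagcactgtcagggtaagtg

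The libraries held 8587634 to 10551516 reads on genes, so that 3 reads, used as a detection floor for counting error only, correspond to between 0.284 and 0.349 RPM. THY1 had 0, 1 and 0 reads in CD90- and 435, 445 and 680 reads in CD90+, so the lines carry the gene that their labels give. The biliary epithelial markers KRT7 and KRT19 were at 3042 RPM or more in every library. The defining smooth muscle genes gave few or no reads in either line, with MYOCD and LMOD1 at 0 reads in all 6 libraries, CNN1 and DES at 0 or 1 read and MYH11 at 1 to 6 reads, whereas SMTN, which is also read in other cells, had 40.7 to 70.4 RPM. The 10 genes are therefore called by the name of their protein family here, not as a sign of smooth muscle cells. Amplicons differ in yield, and MYL6, a light chain gene that nearly every cell uses, had only 0.963 to 1.52 RPM, so levels are not compared between genes and a gene at the floor is only one whose amplicon gave at most 3 reads in each library.

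Of the 10 contractile genes, 5 fell in CD90+ and none rose at an adjusted p of at most 0.05 (limma on log2(RPM + 1), Benjamini-Hochberg over all 20811 genes). Among all genes, 9.52% were lower and 9.41% higher by the same rule. The genes that fell were TAGLN, MYL9, ACTA2, TPM2 and TPM1, from the most to the least reduced. CALD1 and MYH11 overlapped between the lines, ACTG2 missed the threshold, and CNN1 and LMOD1 were at the floor in both lines. In 6 of the 10 genes all 3 CD90+ libraries lay below all 3 CD90- libraries, as did 17.7% of all genes. By the thresholds of the study's methods (fold change of at least 1.5 and unadjusted p of at most 0.05) 4 of the 10 were lower and none higher, against 9.98% and 10.1% of all genes. None was higher at an unadjusted limma p of at most 0.05, while CALD1 was called higher by edgeR and by DESeq2. On recovered reads edgeR and DESeq2 called the same 5 genes lower. For these methods the share over all genes is given only for edgeR after its filter on low counts. The filter of edgeR kept 6 of the 10 genes, those averaging 1 RPM or more, and in its 12070 genes 22.2% were called lower and 22.2% higher. The median log2 fold change was -0.50 over the 10 genes, or -0.56 with ACTG2 at its bound and -0.85 when CNN1 and LMOD1 were also left out, against 0 over all genes. No label says what same-numbered libraries share, and they were treated as pairs only because they deviated together. When these pairs entered the fit as a block, 2 of the 10 genes (TAGLN and MYL9) fell, against 6.4% of all genes. With any 1 library left out 2 to 3 of the 10 fell, against 5.02% to 7.4% of all genes.

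**Figure D1:**
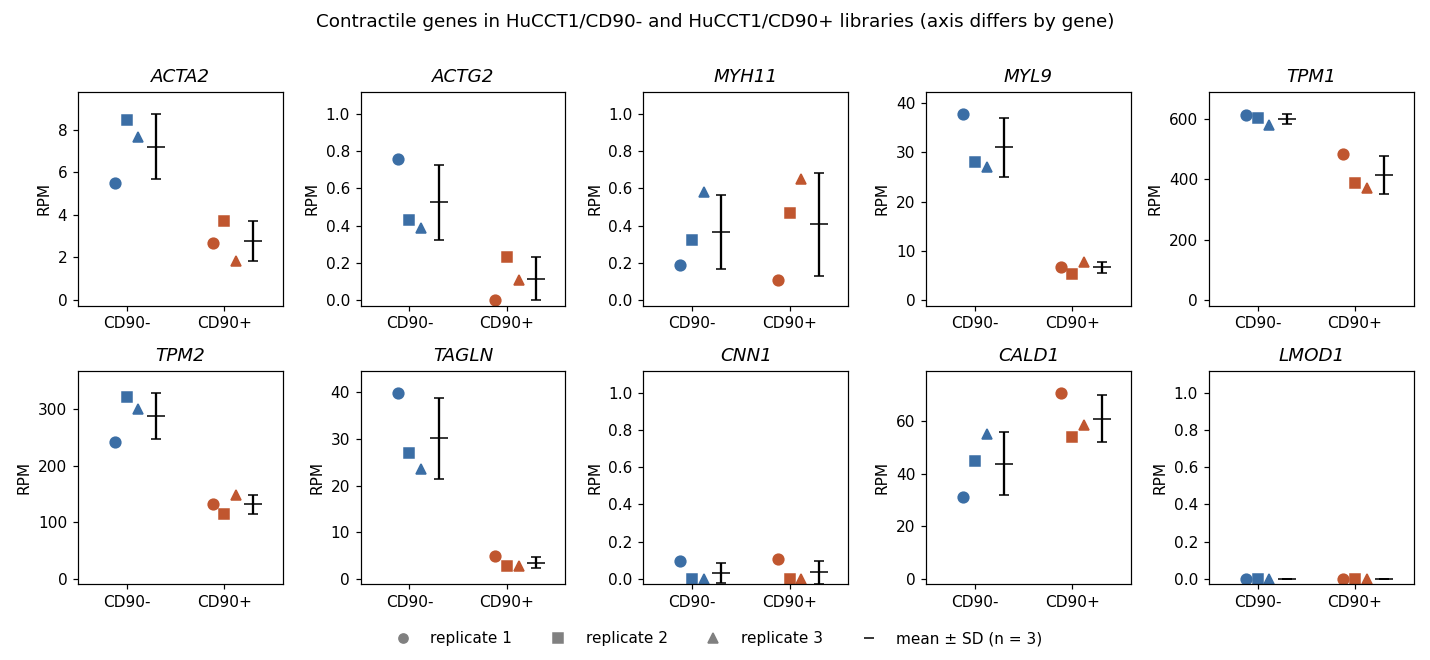
RPM of the 10 contractile genes in the 3 CD90- libraries (blue) and the 3 CD90+ libraries (orange), with a panel and a linear axis for each gene, a symbol for each replicate number and the mean ± SD (n = 3) in black. The lines are apart for ACTA2, ACTG2, MYL9, TPM1, TPM2 and TAGLN, overlap for CALD1 and MYH11, and are at or next to 0 for CNN1 and LMOD1.

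TAGLN showed the largest change of the 10. It encodes transgelin (SM22α), an actin-bundling protein of the calponin family that is an early marker of smooth muscle and myofibroblasts, and lies on chromosome 11 of GRCh38 from 117199321 to 117204782 (GENCODE 29). The CD90- libraries had 39.9, 27.0 and 23.5 RPM (421, 252 and 242 reads) and the CD90+ libraries 4.82, 2.80 and 2.82 RPM (45, 24 and 26 reads). Replicate 1 was the highest library in both lines, and the lowest CD90- library was still well above the highest CD90+ library. Its mean was thus 8.65 times lower, and limma put the log2 fold change at -2.79 (SE 0.29) with 95% bounds of -3.55 and -2.03 and an adjusted p of 0.0064. TAGLN passed the threshold in every alternative fit, with log2 fold changes from -3.00 to -2.58 across the 6 fits that lacked 1 library.

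MYL9, the regulatory light chain whose phosphorylation starts contraction in smooth muscle, lies on chromosome 20 from 36541484 to 36551447. It had 37.8, 28.1 and 27.1 RPM in CD90- and 6.75, 5.36 and 7.70 RPM in CD90+, from 399, 263 and 279 and from 63, 46 and 71 reads. The spread within either line was small beside the gap between them. MYL9 fell by 2.07 on the log2 scale (SE 0.19), 4.69 times by the means, with a limma adjusted p of 0.0047, and it too passed in every alternative fit. MYH11, the smooth muscle myosin heavy chain and the most specific marker of the set, lies on chromosome 16 from 15703172 to 15857033 and stayed near the floor with 2, 3 and 6 reads in CD90- and 1, 4 and 6 reads in CD90+, and no difference was detectable at this depth (log2 fold change 0.04, 95% confidence interval from -0.49 to 0.56).

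Of the actins, ACTA2 encodes smooth muscle α-actin, the usual myofibroblast marker, on chromosome 10 from 88935074 to 88991339. It had 5.50, 8.45 and 7.66 RPM in CD90- and 2.68, 3.73 and 1.84 RPM in CD90+, from 58 to 79 and from 17 to 32 reads. The highest CD90+ library lay below the lowest CD90- library. ACTA2 fell by 1.14 on the log2 scale (SE 0.25, 95% bounds of -1.82 and -0.47), 2.62 times by the means, and its limma adjusted p of 0.046 is close to the threshold. With the replicate block it was 0.095, and when any 1 of the 6 libraries was left out it rose to between 0.057 and 0.14. On recovered reads ACTA2 passed with DESeq2 (adjusted p = 0.00068) and with edgeR (2.1e-05, or 0.00087 after its filter on low counts). ACTG2, the γ-actin of gut smooth muscle, on chromosome 2 from 73892314 to 73919865 and with the exact CArG boxes in its promoter above, had 8, 4 and 4 reads in CD90- and 0, 2 and 1 reads in CD90+. The CD90- mean was 1.502 times the floor, a bound that leaves out the counting error of this mean. The limma log2 fold change of ACTG2 was -0.45, with 95% bounds of -0.80 and -0.10. The difference did not pass (adjusted p = 0.091 from limma, and 0.097 and 0.19 with edgeR and DESeq2).

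Tropomyosins run along actin filaments and steer which myosins and severing proteins reach them, and both genes here also make non-muscle isoforms that the amplicons may not tell apart. TPM2 lies on chromosome 9 from 35681992 to 35690121. It had 242, 321 and 300 RPM in CD90- and 132, 114 and 148 RPM in CD90+, with at least 980 reads in each library. All 3 CD90+ libraries lay below all 3 CD90- libraries. TPM2 fell 2.19 times by the means, or -1.12 on the log2 scale (SE 0.15), with a limma adjusted p of 0.014. With the replicate block its adjusted p was 0.070, without CD90- replicate 3 it was 0.057 and without CD90+ replicate 1 it was 0.054.

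TPM1, on chromosome 15 from 63042632 to 63071915, had 614, 605 and 580 RPM in CD90- and 485, 387 and 372 RPM in CD90+. The 3 CD90- libraries were close together and replicate 1 stood above the others in CD90+. The fall, by 0.54 on the log2 scale (SE 0.12, limma adjusted p of 0.042), was the smallest of the 5 and below the minimum fold change of 1.5 that the study's methods set. It lost the threshold with the block (0.082) and when any library but CD90+ replicate 1 was left out (0.11 to 0.12), and passed without that library (0.0072) and on recovered reads with edgeR (0.0017) and DESeq2 (0.0015).

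CALD1 encodes caldesmon, which inhibits actomyosin and whose short form is found in most cells, on chromosome 7 from 134744252 to 134970728. It had 31.3, 44.9 and 55.2 RPM in CD90- and 70.8, 53.8 and 58.4 RPM in CD90+, so the lines overlapped and replicate 1 was the lowest library of one line and the highest of the other. Its log2 fold change of 0.50 had 95% bounds of -0.16 and 1.16 and did not pass (limma adjusted p of 0.28). On recovered reads CALD1 was called higher with edgeR (adjusted p = 0.021, or 0.040 after its filter) and DESeq2 (0.039). Genes of chromosome 7 were higher together in CD90+ (median of 0.55 on the log2 scale for the 376 genes that averaged 10 RPM or more), and with that median subtracted CALD1 had a log2 fold change of -0.04. For the chromosomes of the 5 genes that fell, the medians were -0.060 on chromosome 10, 0.25 on 11, 0.10 on 15, -0.042 on 9 and 0.11 on 20, and with these subtracted TAGLN, MYL9, TPM2 and TPM1 passed and ACTA2 had an adjusted p of 0.057.

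CNN1, the gene of basic calponin on chromosome 19 (11538717 to 11550323), and LMOD1, the gene of leiomodin 1, which nucleates actin filaments in smooth muscle, on chromosome 1 (201896452 to 201946588), gave no more than 1 read in any library. No fold is given for either.

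**Figure D2:**
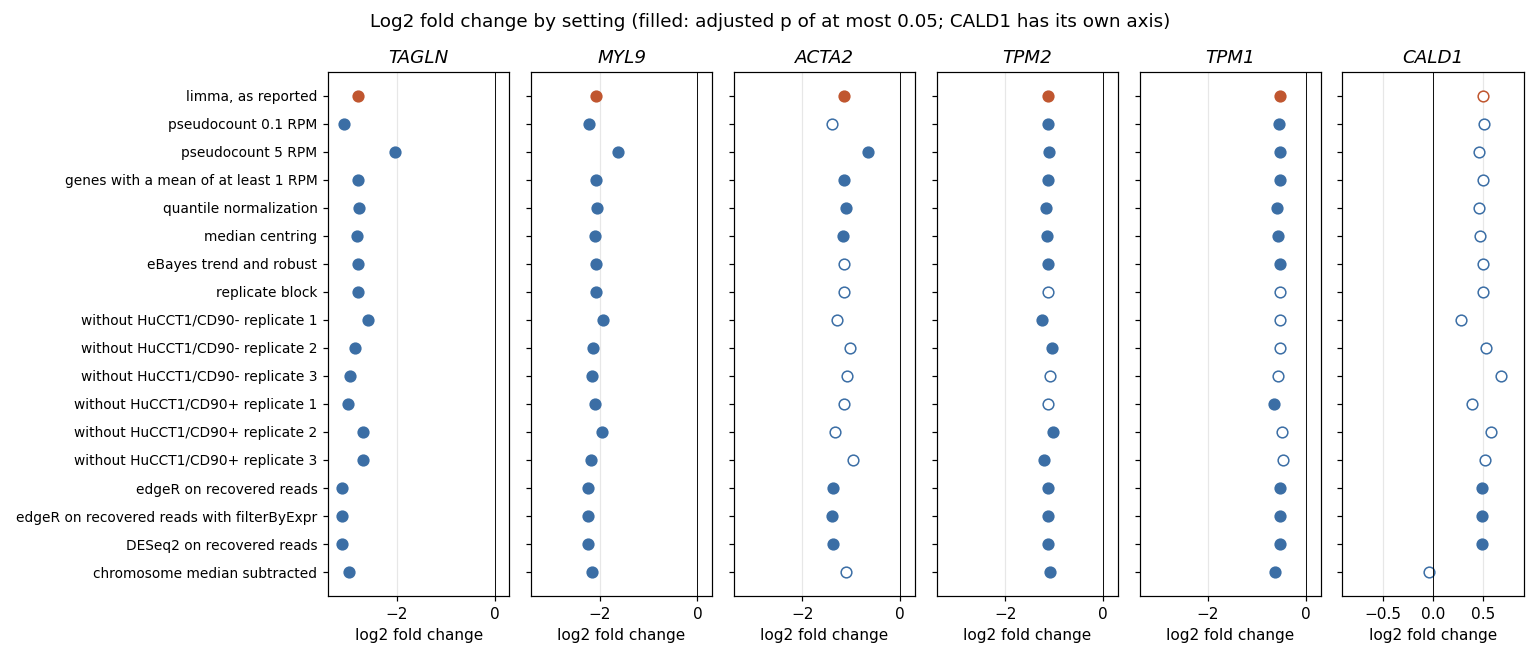
Log2 fold change (horizontal axis, CD90+ against CD90-) of the 6 contractile genes that averaged 1 RPM or more under each way of fitting (rows), filled where the adjusted p was at most 0.05, with the reported limma fit in orange. TAGLN and MYL9 are filled in every row, ACTA2, TPM2 and TPM1 keep their sign but not their call, and CALD1 moves to -0.04 when the median of its chromosome is subtracted.

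The regulators of these genes were read next. None of SRF, MKL1 (MRTF-A), MKL2 (MRTF-B) and MYOCD passed with limma, and 1 of the 4, MKL2, had an unadjusted p of at most 0.05. SRF had 43.1, 64.0 and 43.9 RPM in CD90- and 43.7, 48.3 and 37.2 RPM in CD90+ (log2 fold change -0.20, 95% confidence interval from -0.74 to 0.33). MKL1 was 53.5 ± 12.7 RPM in CD90- and 73.2 ± 9.61 RPM in CD90+ (SD, n = 3 each), with an adjusted p of 0.22 from limma and 0.042 from edgeR after its filter. MKL2 was 34.3 ± 4.59 and 45.3 ± 2.43 RPM (adjusted p = 0.080 from limma and 0.049 from filtered edgeR), and edgeR without the filter called 1 of the 4 (MKL1) and DESeq2 2 of the 4 (MKL1 and MKL2) higher. The coactivators work through their place in the cell, which transcript levels do not show.

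Genes listed as non-muscle paralogues, from the same protein families, were set beside the contractile genes. Of 15 paralogues, 1 fell (TAGLN2), 1 rose (MYH14) and 13 did not pass, with a median log2 fold change of 0.12. For this list and those below, the shares over all genes were 9.52% lower and 9.41% higher (blocked 6.4% and 6.72%). TAGLN2, a transgelin found in many cell types, had 1692, 1823 and 1679 RPM in the CD90- line and 746, 801 and 763 RPM in the CD90+ line. It fell by 1.17 on the log2 scale (limma adjusted p of 0.00069), and at -0.85 still passed when the median of chromosome 1 was subtracted. MYH14, a non-muscle myosin II heavy chain of epithelia, had at most 2 reads in each CD90- library and 25.1, 28.9 and 39.2 RPM in CD90+, a rise of at least 96.7-fold over that floor (limma adjusted p of 0.00059). MYH10, another heavy chain, had no reads in CD90- and 0.107 to 0.815 RPM in CD90+, without passing.

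The cytoplasmic actins ACTB and ACTG1 had log2 fold changes of 0.25 and -0.36, and neither passed with limma (adjusted p = 0.19 and 0.091), although the 3 ACTB values in CD90+ lay above and the 3 ACTG1 values below those of CD90-. With the median of chromosome 7 subtracted ACTB was at -0.29. On recovered reads edgeR called 2 of the 15 paralogues lower, ACTG1 and TAGLN2, and 5 higher, MYH14, MYH10, CNN2, MYL12B and TMOD3. The light chains MYL12A, MYL12B and MYL6 had log2 fold changes of 0.12, 0.42 and -0.06, the heavy chain MYH9 of 0.12, the tropomyosins TPM3 and TPM4 of -0.32 and 0.01, the calponins CNN2 and CNN3 of 0.48 and 0.03 and the capping protein TMOD3 of 0.43, with adjusted p-values of at least 0.057 (limma). TMOD1 was at the floor in both lines. Whether a contractile gene changed more than its paralogue was not tested.

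**Figure D3:**
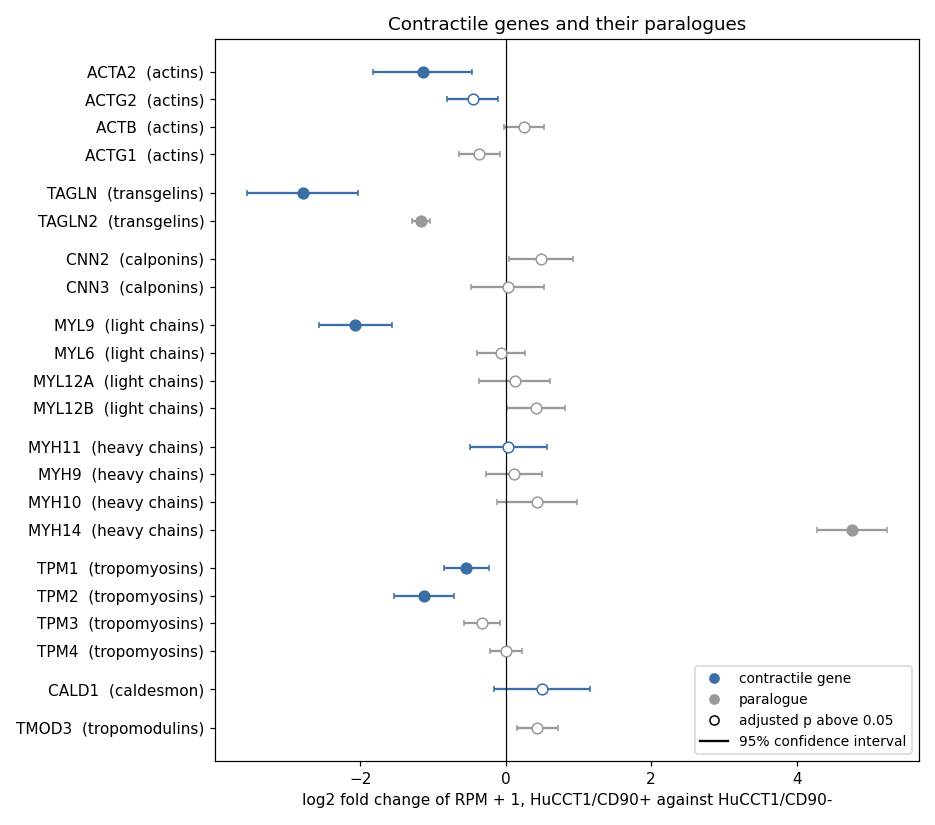
Log2 fold change of RPM + 1 between CD90+ and CD90- with its 95% confidence interval (horizontal axis) for 8 contractile genes (blue) and 14 paralogues (grey), grouped by protein family, filled where the adjusted p was at most 0.05. CNN1, LMOD1 and TMOD1, at the floor in both lines, are left out, and MYH14, at 4.76, stands far to the right of all others.

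Against 9.52% of all genes lower and 9.41% higher with limma, 2 of 20 other smooth muscle genes fell and none rose. At an unadjusted p of at most 0.05, 4 were lower, and edgeR, filtered or not, and DESeq2 called 3 lower, the third being TGFB1I1, a LIM protein of focal adhesions (100.3 ± 15.4 and 56.0 ± 11.99 RPM, adjusted p = 0.057 with limma and 6.4e-05 with DESeq2), named after its values were seen. In the other direction there was 1 gene higher at an unadjusted p of at most 0.05 (SMTN, the gene of smoothelin) and 2 higher, SMTN and LPP, with edgeR, filtered or not, and with DESeq2. At 11 of the 20 both lines were at the floor, 7 of them with no reads at all. SYNM, an intermediate filament protein that links desmin to adhesions, had 5.50, 5.89 and 7.28 RPM in the CD90- line against 1.93, 1.86 and 2.06 RPM in the CD90+ line, and fell by 1.28 on the log2 scale (limma adjusted p of 0.0033). CSRP2, a LIM protein of smooth muscle, went down from 11.7 ± 1.42 to 6.78 ± 1.29 RPM (limma adjusted p of 0.042, 0.16 in the blocked fit). With 1 library left out CSRP2 passed only without CD90+ replicate 2. In the blocked limma fit the 2 genes called lower were SYNM (adjusted p = 0.025) and PDLIM7 (0.044, against 0.080 unblocked). PDLIM7 was named after its values were seen.

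Of 18 genes that control actomyosin, 5 rose and 1 fell, or 2 and 1 in the blocked fit, while the median over the list was -0.14 on the log2 scale. DIAPH1, a formin that elongates actin filaments, rose from 182 ± 25.4 to 315 ± 15.8 RPM (adjusted p = 0.015, blocked 0.080). DAPK3, a kinase of myosin light chains, rose from 128 ± 18.4 to 214 ± 14.8 RPM (adjusted p = 0.023, blocked 0.10). With 1 library left out, DIAPH1 passed only without CD90- replicate 1 and DAPK3 only without CD90- replicate 1 or 2. LIMK1, which inactivates the severing protein cofilin, rose from 85.0 ± 4.01 to 143 ± 4.92 RPM (adjusted p = 0.0018), but lies on chromosome 7 and had a log2 fold change of 0.20 in place of 0.74 with the median of that chromosome subtracted (adjusted p = 0.057). The other genes called higher, named after their values were seen, were DIAPH3 (blocked 0.055, past the threshold only without CD90- replicate 3 among the fits with 1 library left out) and ARHGEF1 (blocked 0.041, lost without CD90- replicate 2, CD90+ replicate 1 or CD90+ replicate 3). All these p-values are from limma, and the SD is over 3 libraries.

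Of 14 actin linkers and LIM proteins, 3 fell and 2 rose, against 9.52% and 9.41% of all genes. The median of the list was -0.04 on the log2 scale, and the counts were the same with the block. The talins, which tie integrins to actin, both fell. TLN2 had 79.7, 123 and 91.8 RPM in the CD90- line and 13.8, 13.04 and 17.5 RPM in the CD90+ line, and it fell by 2.64 on the log2 scale (limma adjusted p of 0.0032). TLN1 fell by 1.15, from a mean of 371 ± 50.7 to 165 ± 6.72 RPM (0.0052). FHL2, a LIM protein that SRF can induce, rose by 1.08, from 90.8 ± 9.05 to 192 ± 8.86 RPM (0.0031). The other calls, named after their values were seen, were a fall of FHL1 and a rise of LIMA1.

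Markers of other cell types differed between the lines as well. Of 10 fibroblast and pericyte genes, 6 fell and 1 rose with limma, or 3 and 0 with the block, and the list summed to between 42.1 and 65.5 RPM in each CD90- library against 20.7 to 25.0 RPM in each CD90+ library. Without LUM, the highest of the list, the sums were 24.8 to 31.5 RPM in CD90- and 15.1 to 15.5 RPM in CD90+. DCN, the matrix proteoglycan decorin, had 2.27, 11.2 and 7.76 RPM in CD90- and at most 1 read in CD90+, at least 20.3-fold lower (limma adjusted p of 0.034, 0.086 in the blocked fit), and passed only without CD90- replicate 1 among the fits with 1 library left out. PDGFRB, a receptor of fibroblasts and pericytes, went down from 5.49 ± 0.541 to 0.697 ± 0.144 RPM (limma adjusted p of 0.00099). LUM, the proteoglycan lumican, went from 26.4 ± 10.7 to 7.30 ± 2.33 RPM (0.046, and between 0.057 and 0.13 when any 1 library was left out). Of the rest, named after their values were seen, COL1A2 and COL3A1 had 3 to 13 reads in each CD90- library and none in CD90+, and were called lower by limma, edgeR (0.0029 and 7.1e-05) and DESeq2 (0.018 and 0.0020) but not in the blocked fit (0.090 and 0.10). RGS5 (called lower, blocked 0.031) and NOTCH3 (called higher, blocked 0.063) had at most 3 reads in every library, at the floor, and passed neither with edgeR (0.28 and 0.052) nor with DESeq2 (0.33 and 0.14). With 1 library left out, COL1A2 passed only without CD90- replicate 1 or 2, COL3A1 only without CD90- replicate 2, RGS5 only without CD90+ replicate 1 and NOTCH3 only without a CD90+ library. COL1A1 did not differ beyond the spread (13.5 ± 2.21 and 14.2 ± 0.186 RPM), and FAP had no reads in CD90- and 1 in CD90+. The part of other cells in the fall of the contractile genes was not tested, and in RNA of whole cultures fewer cells of a kind and less RNA per cell cannot be told apart.

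Of 15 striated muscle genes none fell with limma, edgeR or DESeq2 (1, MYH3, at an unadjusted p of at most 0.05), 2 rose and 10 were at the floor in both lines. TNNT1, slow skeletal troponin T, rose by 2.72 on the log2 scale, from 11.8 ± 1.28 to 83.7 ± 13.5 RPM (limma adjusted p of 0.0015). TNNT2, the cardiac form, went from 0.508 to 2.21 RPM (0.044, 0.067 in the blocked fit, and at least 0.055 with any 1 library left out). The list summed to between 11.3 and 14.8 RPM in each CD90- library and between 73.3 and 98.0 RPM in each CD90+ library, nearly all of it TNNT1, without which it summed to 0.570 to 1.93 and to 3.14 to 4.61 RPM. MYOD1 and MYOG, which define skeletal muscle, had no reads.

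Of 7 blood and endothelial genes, 1 fell and 2 rose, with sums of 61.0 to 74.8 RPM in CD90- and of 85.3 to 103 RPM in CD90+. Most of these sums was CD68, and without it the list summed to 14.6 to 23.3 RPM in CD90- and only 1.72 to 2.80 RPM in CD90+. CDH5, the cadherin of endothelium, had 13.4, 16.8 and 19.7 RPM in the CD90- line and 4, 2 and 2 reads in the CD90+ line (limma adjusted p of 0.00080), and CD68, a lysosomal protein of macrophages and some tumour cells, rose from 50.8 ± 4.50 to 92.2 ± 8.39 RPM (0.0089). The other rise was that of HBB, named after its values were seen, to 0.961 RPM, which lost the threshold without CD90- replicate 3 or CD90+ replicate 3 (0.051 at most). PTPRC, which defines blood cells, had 1 read in 1 library. The endothelial genes PECAM1 and VWF, named after their values were seen, went in opposite directions and neither passed with limma. PECAM1 went from 2.185 ± 1.20 to 0.527 ± 0.413 RPM (adjusted p = 0.14 with limma, 0.00033 with edgeR and 0.015 with DESeq2). VWF had 0 reads in CD90- and 1, 3 and 4 reads in CD90+ (0.091, 0.034 and 0.10 in the same order). Of 10 biliary epithelial genes 7 rose and 1 fell, or 5 and 1 in the blocked fit, which lost KRT8 (0.092) and KRT19 (0.14), with sums of 8291 to 9397 and of 11365 to 12170 RPM. The largest rises were those of CLDN4, a tight junction claudin (log2 fold change 4.69), CDH1, the gene of E-cadherin (3.89), and EPCAM, an epithelial adhesion molecule (3.62), with adjusted p-values of at most 0.0022 (limma). The gene that fell, MUC1, named after its values were seen, went from 59.7 ± 6.38 to 29.9 ± 5.67 RPM (0.027), with 1 library left out only without CD90+ replicate 2 past the threshold.

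**Figure D4:**
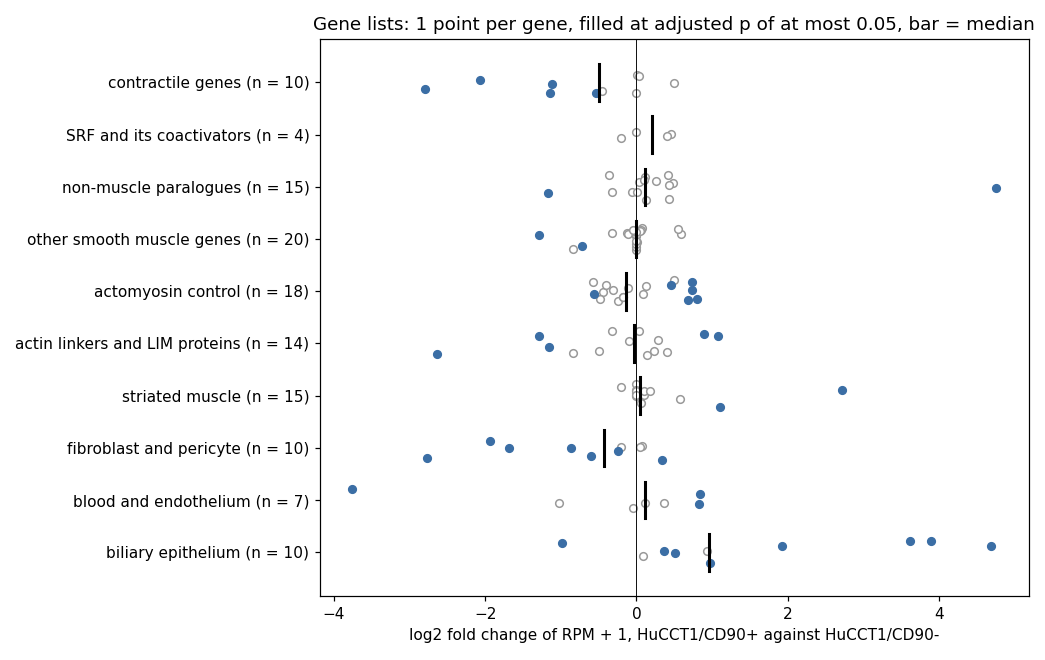
Log2 fold change of RPM + 1 between CD90+ and CD90- (horizontal axis) for each gene of the 10 contractile genes and of 9 other lists, filled where the adjusted p was at most 0.05, with the median of each list as a bar. Called contractile genes lie only to the left of 0, as 5 of 10, whereas called genes of the biliary epithelial list lie to the right but for 1.

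The 5 contractile genes that fell were joined into a mean standardized profile, and the 8789 genes that averaged 10 RPM or more were ranked by their correlation with it. The points are 6 libraries of 2 lines, so that any gene that separates the lines correlates strongly, and 604 of these genes reached r = 0.95 or more. The closest were ARPC5, a subunit of the Arp2/3 complex that branches actin filaments (r = 0.999), XYLT1, which starts glycosaminoglycan chains on proteoglycans (0.998), VGLL4, a cofactor of TEAD factors (0.998), IFNGR1, the interferon-γ receptor (0.997), and SLC39A8, a metal ion transporter (0.997). ARPC5 went from 558 ± 18.6 to 266 ± 14.5 RPM, or -1.07 on the log2 scale. Within the lines the contractile genes did not share an order of libraries. In CD90-, replicate 1 was the highest library for TAGLN, MYL9 and TPM1 and the lowest for ACTA2, TPM2 and CALD1.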

How the data were processed

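Total RNA of 3 HuCCT1/CD90- and 3 HuCCT1/CD90+ libraries was reverse-transcribed and amplified by the authors with an Ion AmpliSeq panel for the human transcriptome. Libraries were read on an Ion S5 Prime and their reads counted per amplicon with the ampliSeqRNA plugin. The deposited values are RPM for 20811 genes with 1 amplicon each, and per the labels the build was hg19. The table gives no amplicon coordinates, so gene positions are those of GENCODE 29 on GRCh38. Groups were taken from the sample labels, and the table held no columns of other samples. A value depends on the isoforms that hold the amplicon and is not corrected for length. Between 99.899% and 99.995% of each library's values lay within 0.0005 RPM (the table's rounding) of a whole multiple of the value of 1 read. Rounding all values to the nearest multiple gave the reads (8587634 to 10551516 per library). No library was a copy of another (chi-square tests of their reads).

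log2(RPM + 1) was fitted over all genes with limma 3.58.1 (lmFit and eBayes, R 4.3.3), two-sided, with Benjamini-Hochberg adjustment, and called at 0.05. The pseudocount shrinks the changes of weakly expressed genes. Folds against a line with at most 3 reads in each library are bounds, taken against the highest of its floors of 3 reads. They leave out the counting error of the other line's mean. Same-numbered libraries deviated together from the means of their lines (r = 0.21, 0.32 and 0.18 over all genes, and from -0.29 to 0.07 for the 6 other pairs), so the numbers were treated as pairs, on this ground only. Alternatives were other pseudocounts (0.1 and 5 RPM), only genes averaging 1 RPM or more, quantile normalization, median centring, trended and robust eBayes, the replicate block, each library left out, the study's thresholds (fold change 1.5, unadjusted p of at most 0.05), subtraction of the median change of each chromosome (18609 genes with a chromosome), and edgeR 4.0.16 and DESeq2 1.42.0 on recovered reads, edgeR also after filterByExpr (12070 genes). Scripts were tested on simulated data. Named are the 10 genes, THY1, the SRF and paralogue lists, up to 3 called genes averaging 1 RPM or more with the largest change from each other list, the 5 genes most alike in pattern, and genes named as markers or as chosen after their values were seen. The 10 genes and all lists were chosen with earlier results of these data known. The actomyosin gene that fell is not reported by name here.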

Additional observations from a re-analysis of the deposited data

How the results depend on the processing

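The lines are 3 against 3 libraries, and genes of a few reads set the limit of what could be seen: at MYH11, ACTG2, CNN1 and LMOD1 a change would be detectable only if it were large. Of the fold changes and list counts under alternatives other than leaving out a library, 253 kept direction and side of the threshold or, as counts, stayed within 1.5 times, while 54 counts moved further, 6 fold changes lost and 3 gained the threshold and 1 turned its sign. TAGLN and MYL9 passed in all that were run. With the replicate number as a block, ACTA2 (-1.14), TPM1 (-0.54) and TPM2 (-1.12) kept their log2 fold changes but missed the threshold, so that 2 contractile genes were called lower, and 2 actomyosin genes, 1 striated gene and 0 fibroblast genes were called higher and 3 fibroblast genes lower. The block changed no other of these counts by over 1.5 times, though among the other smooth muscle genes PDLIM7 replaced CSRP2 as called lower. ACTA2 also missed it with a pseudocount of 0.1 RPM (-1.39), with trended and robust eBayes (-1.14) and after subtraction of chromosome medians (-1.10), where CALD1 turned to -0.042 and 0 biliary genes were lower. CALD1 passed with edgeR (0.49, or 0.48 after filterByExpr) and DESeq2 (0.49), each thus calling 1 contractile gene higher. Why these calls changed was not tested.

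For counts on the other lists, edgeR, filtered edgeR and DESeq2 called higher 1, 2 and 2 SRF genes, 5, 4 and 4 paralogues, 2, 2 and 2 other smooth muscle genes and 0, 0 and 0 fibroblast genes, and filtered edgeR 1 blood gene. They called lower 2, 2 and 2 paralogues, 5, 3 and 3 actomyosin genes, 5, 5 and 5 linkers and 2, 2 and 2 blood genes, and filtered edgeR 3 fibroblast genes. With only genes averaging 1 RPM or more, 3 paralogues, 1 other smooth muscle gene, 0 fibroblast genes and 1 blood gene were higher, and 3 actomyosin, 3 fibroblast and 2 blood genes lower. Median centring gave 1 SRF gene, 2 paralogues and 1 other smooth muscle gene higher, and 2 actomyosin genes and 5 linkers lower. Quantile normalization gave 2 paralogues lower and 2 higher, and 1 other smooth muscle and 1 striated gene lower. A pseudocount of 5 RPM gave 3 fibroblast genes lower, and a pseudocount of 0.1 RPM or robust eBayes gave 1 striated gene higher.

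With each library left out in turn, 2 to 3 contractile genes were called lower and 0 higher. The shares over all genes were 5.02% to 7.4% lower and 5.54% to 6.69% higher. The log2 fold change ranged from -1.32 to -0.96 for ACTA2, from -3.00 to -2.58 for TAGLN, from -2.17 to -1.92 for MYL9, from -0.66 to -0.47 for TPM1, from -1.24 to -1.03 for TPM2, from 0.28 to 0.68 for CALD1, from -0.53 to -0.34 for ACTG2 and from -0.089 to 0.20 for MYH11, which was below 0 without CD90- replicate 1 (-0.058), CD90+ replicate 2 (-0.0031) or CD90+ replicate 3 (-0.089). THY1 ranged from 5.60 to 5.92. Genes called lower numbered 1 to 2 of the paralogues, 1 to 2 of the other smooth muscle genes, 0 to 2 of the actomyosin genes, 3 of the linkers, 0 to 1 of the striated genes, 1 to 3 of the fibroblast genes, 1 of the blood genes and 0 to 1 of the biliary genes. Genes called higher numbered 0 to 1 of the SRF genes, 1 to 2 of the paralogues, 0 to 1 of the other smooth muscle genes, 1 to 5 of the actomyosin genes, 2 of the linkers, 1 to 2 of the striated genes, 0 to 1 of the fibroblast genes, 1 to 3 of the blood genes and 5 to 7 of the biliary genes.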
